A study of Homo sapiens with 2 samples.

Results

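The mRNA decay and surveillance machinery was followed as 41 genes, taken by symbol from the exosome, the CCR4-NOT and PAN2-PAN3 deadenylases, the decapping complex with XRN1, and nonsense-mediated decay. All 41 were found among the 58884 gene IDs of the count files. RNA came from T24/R, an adherent epithelial bladder line by its labels, in the context of a study of CDK7 inhibition in urothelial carcinoma. One culture was exposed to 1600 nM THZ1 for 6 h and the other to DMSO, the solvent, for 6 h. THZ1 binds covalently to CDK7, the TFIIH kinase that phosphorylates RNA polymerase II, and inhibits the related kinases CDK12 and CDK13 as well. With 1 library per group, the differences below lack a replicate check, and p-values are left out. All intervals are 95% intervals of counting error.

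Most eukaryotic mRNAs are degraded after their poly(A) tail has been shortened. PAN2-PAN3 and CCR4-NOT are the enzymes that remove the tail. The body of the mRNA is then digested from its 3′ end by the exosome, or loses its cap to DCP2 and is digested from its 5′ end by XRN1. Nonsense-mediated decay sends mRNAs with a premature stop codon into these pathways: the helicase UPF1 is phosphorylated by the kinase SMG1, and SMG5 and SMG6 then bring about the cleavage or decay of the transcript. The counts below are amounts of polyadenylated RNA at a single time, not rates of decay.

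The THZ1 library held 18313827 counts and the DMSO library 18445831. The 13 mitochondrially encoded mRNAs took 14.9% of counts in THZ1 and 6.60% in DMSO, and the part of this gap in the ratios below was not tested. CDK7 itself had 180 counts in THZ1 and 676 in DMSO, a log2 ratio of −1.38. Of 14 epithelial and urothelial marker genes, 3 (KRT18, KRT8 and FOXA1) had at least 30 counts in a library, with a list sum of 42.9 CPM (counts scaled to a common library size) in THZ1 and 43.2 in DMSO. KRT18, an epithelial keratin, made up most of that sum with 494 counts in THZ1 and 696 in DMSO (32.2 CPM in THZ1 and 31.6 in DMSO). KRT8, its partner keratin, had 100 counts in THZ1 and 77 in DMSO, and FOXA1, a urothelial transcription factor, had 21 in THZ1 and 129 in DMSO (1.37 CPM in THZ1 and 5.85 in DMSO). The markers of the labelled cell type are therefore mixed. KRT20, UPK1B and UPK3A were at 0 in both libraries. The epithelial genes EPCAM (3 counts in THZ1 and 0 in DMSO) and CDH1 (3 in THZ1 and 2 in DMSO) were close to 0. Of 8 markers of immune, endothelial, stromal and muscle cells, COL1A1 was the highest with 20 counts in THZ1 and 30 in DMSO, and the list summed to 2.09 CPM in THZ1 and 2.00 in DMSO.

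Levels are given as raw counts or as CPM scaled by TMM, a method that sets the bulk of genes equal between libraries. The rule for a call was a ratio of THZ1 over DMSO of 2-fold or more in either direction, with an interval that left out a ratio of 1. Of the 41 genes, 40 reached 30 counts in at least 1 library and were tested. Of these, 7 were lower in THZ1 (17.5%), beside 21.3% of the 12457 genes tested, and 1 was higher (2.50%), beside 9.70%. The share of lower genes was thus near that of the whole transcriptome. The lower genes were SMG8, CNOT6L, DCP1A, SMG9, CNOT8, CNOT2 and EDC3, and the higher gene was UPF3B. The median log2 ratio was −0.17 over the 40 genes and −0.03 over all tested genes, with quartiles of −0.76 and 0.18 for the 40 and −0.83 and 0.55 for all. In bulk RNA, fewer cells with a transcript and less of it per cell cannot be told apart.

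**Figure D1:**
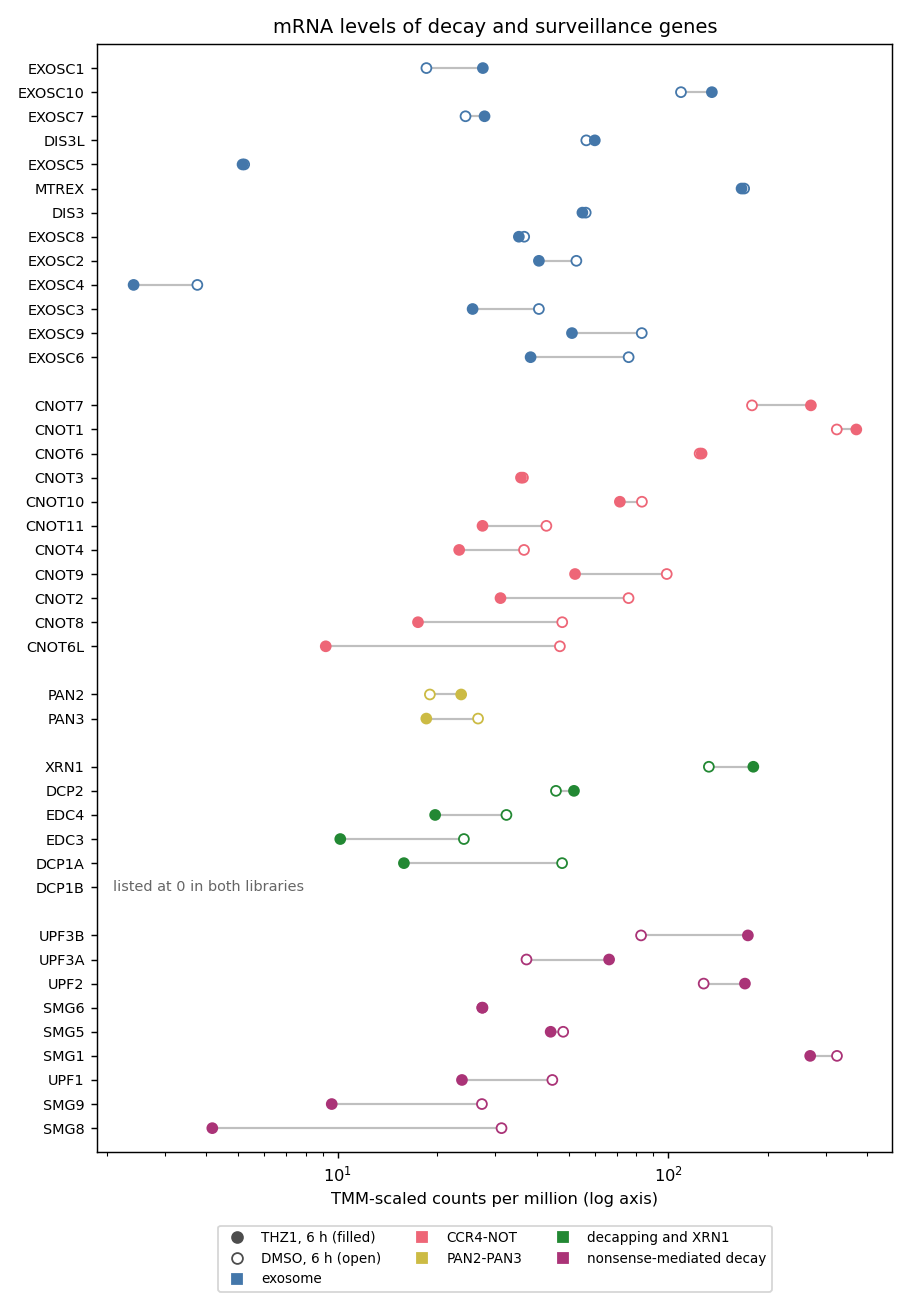
TMM-scaled CPM (log axis) of the 41 genes in THZ1 (filled circles) and DMSO (open circles), 1 library per group, ordered within each complex by the ratio. The lines are longest for SMG8 and CNOT6L, and DCP1B is at 0 in both libraries.

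The level depends on the library scaling. Taking total counts shifts every log2 ratio by −0.51, and taking the mitochondrial mRNAs as the standard shifts it by −1.69. Since both shift ratios downward, neither could end a lower call. DESeq2 size factors shift ratios upward by 0.03, and the 7 lower genes remained lower with them. UPF3B was not called with total counts or the mitochondrial standard: its ratio of 1.07 becomes 0.56 with total counts and −0.62 with the mitochondrial standard. With total counts 17 of the 40 genes were lower and 0 higher, beside 34.2% and 2.95% of all genes, and with the mitochondrial standard 38 were lower and 0 higher, beside 80.3% and 0.706%. With the upper quartile 8 were lower and 1 higher, beside 22.2% and 8.89% of all genes. With a count minimum of 1, where the TMM factors were also recomputed and shifted ratios by −0.10, these were 10 and 0, beside 13% and 6.78%. Those 2 shares are over 27211 genes, many of them with few counts, whereas the members tested were the same 40. The shares of members and of all genes are therefore not alike at this setting. With an interval bound of at least 2-fold, 6 members were lower and 0 higher, beside 15.0% and 5.38%. The other alternatives each gave 7 lower and 1 higher: DESeq2 size factors (20.9% and 10.5% of all genes), a count minimum of 100 (20.9% and 8.03%), protein-coding genes only (21.4% and 8.55%), 5 counts added (20.1% and 9.37%) and thinning (21.3% and 9.70%). Changes are therefore relative to the bulk of the transcriptome, and ratios between members, which carry no scaling, are given where complexes are compared.

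Promoter sequences are shown for the called genes that have a single start in the RefSeq promoter table (GRCh38.p14) and no annotated exon in the window, so that the upstream DNA of lower and higher genes can be read side by side. Each run covers the 180 bases from 250 to 71 before the start, written from 5′ to 3′ on the gene's strand, which is the minus strand for all 3. Capitals mark GGGCGG or its reverse CCGCCC (the GC box), CCAAT or ATTGG (the CCAAT box), and CCGGAA or TTCCGG (the core bound by ETS factors).
DCP1A (lower), chr3:53347614-53347793, minus strand: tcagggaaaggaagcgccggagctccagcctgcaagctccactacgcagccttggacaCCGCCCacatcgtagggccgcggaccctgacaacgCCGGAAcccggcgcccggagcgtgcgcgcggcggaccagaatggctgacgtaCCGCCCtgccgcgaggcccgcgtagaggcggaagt
SMG9 (lower), chr19:43755033-43755212, minus strand: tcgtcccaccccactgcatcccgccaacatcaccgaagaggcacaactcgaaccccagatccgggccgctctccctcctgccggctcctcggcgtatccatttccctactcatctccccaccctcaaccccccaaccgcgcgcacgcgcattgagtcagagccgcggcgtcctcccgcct
UPF3B (higher), chrX:119853034-119853213, minus strand: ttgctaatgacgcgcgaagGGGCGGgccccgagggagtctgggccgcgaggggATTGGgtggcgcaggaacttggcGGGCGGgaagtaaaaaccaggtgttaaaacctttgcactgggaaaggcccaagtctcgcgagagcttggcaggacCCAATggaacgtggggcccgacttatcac
The DCP1A window holds 2 GC boxes and 1 ETS core, the UPF3B window 2 GC boxes and 2 CCAAT boxes, and the SMG9 window none of these letters. TATAAA and its reverse TTTATA are in none of the 3.

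Across the 52 windows of this length that belong to 36 of the genes, 30 (57.7%) held a GC box, beside 31.3% of the 35116 windows in the table. A CCAAT box was in 16 of the 52 (30.8%), beside 23.9%, and an ETS core in 7 (13.5%), beside 8.55%. TATAAA was in 1 of the 52 (1.92%), beside 7.16%. The median GC content was 62.2% over the members' windows and 56.7% over all, and GC-rich letters are found more often in GC-rich DNA. The windows of the table were not limited to genes tested here, whereas nearly all members were tested. Shares over the tested genes alone were not computed. Motifs were searched on both strands, and windows of 1 gene can overlap. A match says only that these letters are present.

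None of the 13 RNA exosome genes passed the rule on the TMM scaling at the minimum of 30 counts. Of all tested genes, 21.3% were lower and 9.70% higher. EXOSC6 was lower with the upper quartile and with a count minimum of 1. EXOSC3, EXOSC4, EXOSC6 and EXOSC9 were lower with total counts, beside 34.2% of all tested genes. All 13 were lower with the mitochondrial standard, beside 80.3% of all tested genes. The exosome is a barrel of 6 ring subunits under a cap of 3 RNA-binding subunits, with the nucleases DIS3 or EXOSC10 attached, or DIS3L in the cytoplasm. All 13 of its genes were tested, and their log2 ratios ran from −0.98 to 0.57 with a median of −0.03. In the cap, EXOSC1 had 421 counts in THZ1 and 409 in DMSO (0.57, interval 0.37 to 0.77), EXOSC2 had 622 counts in THZ1 and 1162 in DMSO (−0.38), and EXOSC3 had 392 counts in THZ1 and 895 in DMSO (−0.66). EXOSC1 and EXOSC3, which sit in the same cap, therefore stood on opposite sides of 0 on the TMM scaling. With total counts EXOSC1 was at 0.05 and EXOSC3 at −1.18. With the mitochondrial standard both were below 0 (EXOSC1 −1.12, EXOSC3 −2.35).

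Of the ring subunits, EXOSC6 came closest to the threshold. EXOSC6, a gene without introns, had 587 counts in THZ1 and 1672 in DMSO, and its ratio of −0.98 (−1.12 to −0.85) lies just outside the rule. EXOSC9 was at −0.70 (783 counts in THZ1 and 1832 in DMSO) and EXOSC4 at −0.63, with 37 counts in THZ1 and 83 in DMSO and the widest interval of the complex (−1.24 to −0.06). EXOSC5 (−0.01), EXOSC8 (−0.05) and EXOSC7 (0.19) were near no change. The exons of EXOSC9 overlap those of CCNA2, the cyclin gene on the other strand, over 5.39% of its exonic length, and CCNA2 had a ratio of −1.95. The counting strand is not given in the sources used here.

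The catalytic subunits and the helicase lay between −0.03 and 0.31. DIS3, which digests RNA processively and can also cut it internally, had 842 counts in THZ1 and 1240 in DMSO (−0.03, −0.16 to 0.09). Its cytoplasmic paralog DIS3L had 918 counts in THZ1 and 1245 in DMSO (0.09, −0.04 to 0.21). EXOSC10, the nuclear nuclease, had 2074 counts in THZ1 and 2407 in DMSO (0.31, 0.22 to 0.40), and 39.3% of its exonic length is shared with antisense genes that had at most 8 counts each. MTREX, the helicase that threads nuclear RNA into the exosome, had 2550 counts in THZ1 and 3737 in DMSO (−0.03, −0.10 to 0.05). All 4 intervals lie well inside 2-fold on this scaling, while with total counts their ratios ran from −0.55 to −0.20.

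**Figure D2:**
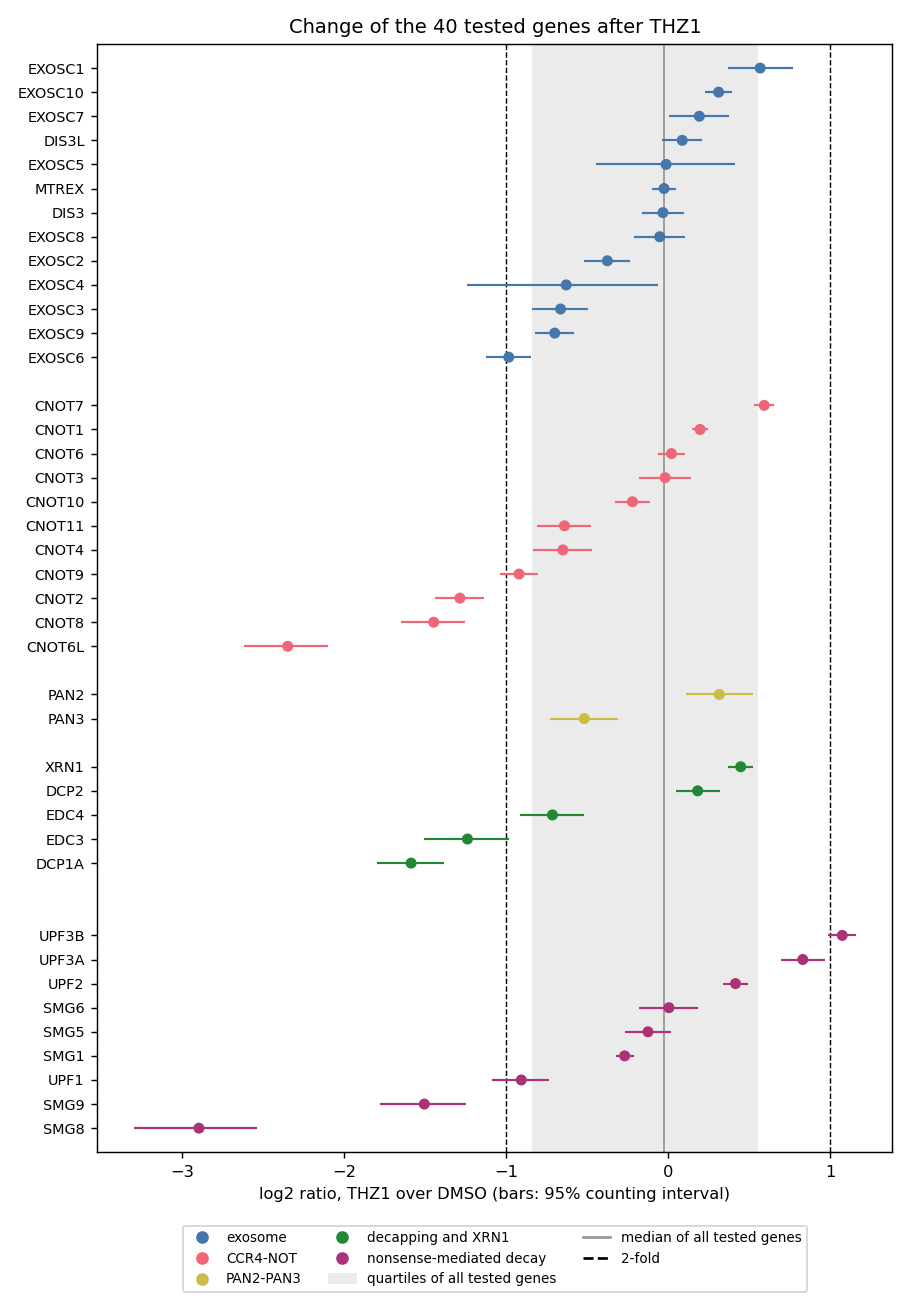
Log2 ratio of THZ1 over DMSO for the 40 tested genes, with 95% counting intervals, grouped by complex. Dashed lines mark 2-fold, the grey band the quartiles of all 12457 tested genes (−0.83 and 0.55) and the grey line their median (−0.03); SMG8 (−2.90) and CNOT6L (−2.35) lie furthest to the left and UPF3B (1.07) furthest to the right.

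In CCR4-NOT, the largest deadenylase, 3 of 11 genes were lower (27.3%, beside 21.3% of all tested genes) and 0 higher (beside 9.70%), with ratios between −2.35 and 0.59. The complex carries 1 nuclease from each of a pair of paralogs, CNOT6 or CNOT6L and CNOT7 or CNOT8. CNOT6L had 141 counts in THZ1 and 1036 in DMSO (9.20 CPM in THZ1 and 47.0 in DMSO), 5.09-fold lower with a ratio of −2.35 (−2.62 to −2.10). Its paralog CNOT6 had 1931 counts in THZ1 and 2741 in DMSO (126 CPM in THZ1 and 124 in DMSO), a ratio of 0.02 (−0.06 to 0.10). On the TMM scaling CNOT6L was thus lower, while the interval of CNOT6 spans 0. CNOT6 was at −0.49 with total counts and at −1.67 with the mitochondrial standard, where it was called lower.

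The other nucleases differed as well. CNOT8 had 268 counts in THZ1 and 1053 in DMSO (17.5 CPM in THZ1 and 47.8 in DMSO), 2.73-fold lower at −1.45 (−1.65 to −1.25). CNOT7 had 4133 counts in THZ1 and 3947 in DMSO (270 CPM in THZ1 and 179 in DMSO), a ratio of 0.59 (0.53 to 0.65) that did not reach 2-fold. With total counts CNOT7 was at 0.08. CNOT6L (ENSG00000138767) lies on chromosome 4 from 77713387 to 77819615 and CNOT8 (ENSG00000155508) on chromosome 5 from 154857553 to 154876793, on GRCh38. The 1 annotated CNOT6L pseudogene had 0 counts in both libraries, and the 2 CNOT7 pseudogenes summed to 1 count in THZ1 and 0 in DMSO.

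The structural subunits of CCR4-NOT varied from 0.20 to −1.29. CNOT1, the scaffold on which the complex is built, had 5670 counts in THZ1 and 7123 in DMSO (0.20, 0.15 to 0.25), the highest CPM of the 41 genes in THZ1. With total counts CNOT1 was at −0.32. CNOT2, which pairs with CNOT3 at the end of the scaffold, had 476 counts in THZ1 and 1671 in DMSO (31.1 CPM in THZ1 and 75.8 in DMSO) and was 2.44-fold lower (−1.29, −1.44 to −1.14). CNOT3 had 549 counts in THZ1 and 801 in DMSO and a ratio of −0.02 (−0.18 to 0.14). CNOT2 was called and CNOT3 was not, and their difference is among the pairs described further on.

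The remaining subunits were below 0 and did not pass the rule on the TMM scaling at the minimum of 30 counts. With total counts CNOT4, CNOT9 and CNOT11 were lower, beside 34.2% of all tested genes. CNOT9 was also lower with a count minimum of 1. CNOT9, which binds the adaptor proteins that bring target mRNAs, had 800 counts in THZ1 and 2180 in DMSO (−0.92), just outside 2-fold. CNOT4, a ubiquitin ligase that associates with the complex, was at −0.65, CNOT11 at −0.64 and CNOT10 at −0.22. Neither of the 2 genes of the smaller deadenylase was called on the TMM scaling, beside 21.3% lower and 9.70% higher of all tested genes. PAN2, its nuclease, had 362 counts in THZ1 and 419 in DMSO (0.31, 0.11 to 0.52). PAN3, the subunit that holds the poly(A) tail, had 284 counts in THZ1 and 586 in DMSO (−0.52, −0.73 to −0.31). With total counts PAN2 was at −0.20 and PAN3 was lower (−1.03).

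Among the decapping genes, 2 of 5 tested were lower, DCP1A and EDC3, and 0 were higher, beside 21.3% and 9.70% of all tested genes. With 5 genes this count says little about the group. DCP1A, the cofactor that activates DCP2, had 243 counts in THZ1 and 1052 in DMSO (15.9 CPM in THZ1 and 47.7 in DMSO) and was 3.0-fold lower (−1.59, −1.80 to −1.39). EDC3, an enhancer of decapping, had 156 counts in THZ1 and 531 in DMSO (10.2 CPM in THZ1 and 24.1 in DMSO) and was 2.36-fold lower (−1.24, −1.51 to −0.98). Both are accessory factors. EDC3 shares 13.7% of its exonic length with the kinase gene CLK3 on the other strand, which had 266 counts in THZ1 and 585 in DMSO (−0.61).

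The enzymes themselves did not pass the rule. DCP2, which removes the cap, had 794 counts in THZ1 and 1008 in DMSO (0.18, 0.04 to 0.32). XRN1, the exonuclease that acts on decapped RNA, had 2768 counts in THZ1 and 2923 in DMSO (0.45, 0.37 to 0.52). EDC4, the scaffold of the decapping complex, had 302 counts in THZ1 and 714 in DMSO (−0.71, −0.92 to −0.52). On total counts DCP2 was at −0.33 and XRN1 at −0.07, so neither sign above 0 holds on that scaling. EDC4 was called lower on it (−1.23).

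DCP1B, the paralog of DCP1A, had 0 counts in both libraries. The floor of 3 counts corresponds to 0.196 CPM in THZ1 and 0.136 CPM in DMSO, and no ratio is given. It belongs to a run of 24 consecutive annotated genes on chromosome 12, from 1757231 to 2812902 (1056 kb), that all had 0 counts in both libraries. The run holds 4 protein-coding genes, CACNA2D4, LRTM2, DCP1B and CACNA1C. The coding genes on either side were counted: ADIPOR2 had 753 counts in THZ1 and 1428 in DMSO, and FKBP4 had 2275 counts in THZ1 and 2681 in DMSO. Of all protein-coding genes, 25.5% had 0 counts in both libraries. Why DCP1B has none was not tested.

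Nonsense-mediated decay held both extremes of the list, with 2 of 9 genes lower (22.2%) and 1 higher (11.1%). These shares are near the 21.3% and 9.70% of all tested genes. The SMG1 kinase complex held the lower genes. SMG8, a regulator of the kinase, had 64 counts in THZ1 and 690 in DMSO (4.18 CPM in THZ1 and 31.3 in DMSO) and was 7.44-fold lower (−2.90, −3.30 to −2.53). This places it at percentile 2.30 of all tested genes, the lowest of the 40. SMG9, its binding partner, had 147 counts in THZ1 and 602 in DMSO (9.59 CPM in THZ1 and 27.3 in DMSO) and was 2.84-fold lower (−1.51, −1.78 to −1.25).

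SMG1 itself stayed within 2-fold, with 4112 counts in THZ1 and 7132 in DMSO (−0.27, −0.32 to −0.21). SMG1 has 7 near-identical pseudogenes in the annotation, which together had 385 counts in THZ1 and 420 in DMSO, so reads may have been lost or shared and its value is uncertain. SMG8 (ENSG00000167447) lies on chromosome 17 from 59209400 to 59215247 with 5 exons, and SMG9 (ENSG00000105771) on chromosome 19 from 43727992 to 43754990 with 14. The coding gene whose exons overlap those of SMG8 had 0 counts in both libraries. Downstream of the kinase, SMG5, which recruits decay enzymes, had 675 counts in THZ1 and 1060 in DMSO (−0.13, −0.27 to 0.01), and SMG6, the endonuclease, had 420 counts in THZ1 and 603 in DMSO (0.00, −0.18 to 0.19).

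Of the 4 UPF genes, 1 passed the rule as higher and 0 as lower, beside 9.70% and 21.3% of all tested genes. With 4 genes this count says little about the group. UPF3B, which links UPF2 to the exon junction complex, had 2665 counts in THZ1 and 1823 in DMSO (174 CPM in THZ1 and 82.7 in DMSO) and was 2.1-fold higher (1.07, 0.99 to 1.16). Its paralog UPF3A had 1014 counts in THZ1 and 821 in DMSO (66.2 CPM in THZ1 and 37.2 in DMSO) and lay just outside the rule at 0.83 (0.70 to 0.96). UPF2 had 2611 counts in THZ1 and 2819 in DMSO (0.41, 0.34 to 0.49). UPF1, the helicase at the centre of the pathway, had 364 counts in THZ1 and 983 in DMSO (23.8 CPM in THZ1 and 44.6 in DMSO), a ratio of −0.91 (−1.09 to −0.73) that did not reach 2-fold. With total counts UPF3A was at 0.31, UPF2 at −0.10 and UPF1 at −1.42. UPF1 was called lower with total counts, and also with a count minimum of 1. With the mitochondrial standard all 4 UPF genes were below 0. UPF3B (ENSG00000125351) lies on chromosome X from 119805311 to 119852998.

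Differences between members do not depend on how the libraries are scaled, because any scaling factor cancels. In 14 pairs of paralogs or complex partners, the interval of the difference excluded 0 in all but DIS3L and DIS3 (0.12, −0.06 to 0.30). The pairs were chosen with earlier results of these data known, and many set a called gene against one that was not. The share among other pairs of genes was not computed, so this count is no result about the pathway. Among the 4 pairs of paralogs, there were 7.30 reads of CNOT6L for every 100 of CNOT6 in THZ1, against 37.8 in DMSO, a log2 difference of −2.37 (−2.65 to −2.10). There were 6.48 reads of CNOT8 per 100 of CNOT7 in THZ1, against 26.7 in DMSO (−2.04, −2.25 to −1.84). The UPF3 pair differed little, with 263 reads of UPF3B per 100 of UPF3A in THZ1 and 222 in DMSO (0.24, 0.08 to 0.40). These are reads per gene, not molecules, since the transcripts differ in length.

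Among partners, the largest difference was SMG8 against SMG1, with 1.56 reads of SMG8 per 100 of SMG1 in THZ1, against 9.67 in DMSO (−2.63, −3.03 to −2.26), subject to the uncertainty of SMG1. SMG8 was also lower than SMG9 (−1.39, −1.87 to −0.93). DCP1A was lower than DCP2, with 30.6 reads per 100 in THZ1 and 104 in DMSO (−1.77, −2.02 to −1.52). UPF1 was lower than UPF2, with 13.9 reads per 100 in THZ1 and 34.9 in DMSO (−1.32, −1.52 to −1.13). In each of these, the read ratio of 2 subunits that act together differed between the libraries.

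The other partners differed by less. CNOT2 stood below CNOT3 by −1.27 (−1.49 to −1.05) and SMG9 below SMG1 by −1.24 (−1.52 to −0.97). The ring subunits EXOSC6 and EXOSC8 differed by −0.93 (−1.14 to −0.72), PAN3 and PAN2 by −0.83 (−1.13 to −0.54), EDC3 and EDC4 by −0.52 (−0.86 to −0.20), and CNOT11 and CNOT10 by −0.42 (−0.62 to −0.22). Intervals that exclude 0 show only that the 2 libraries differ beyond counting error. The variation between cultures was not measured.

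**Figure D3:**
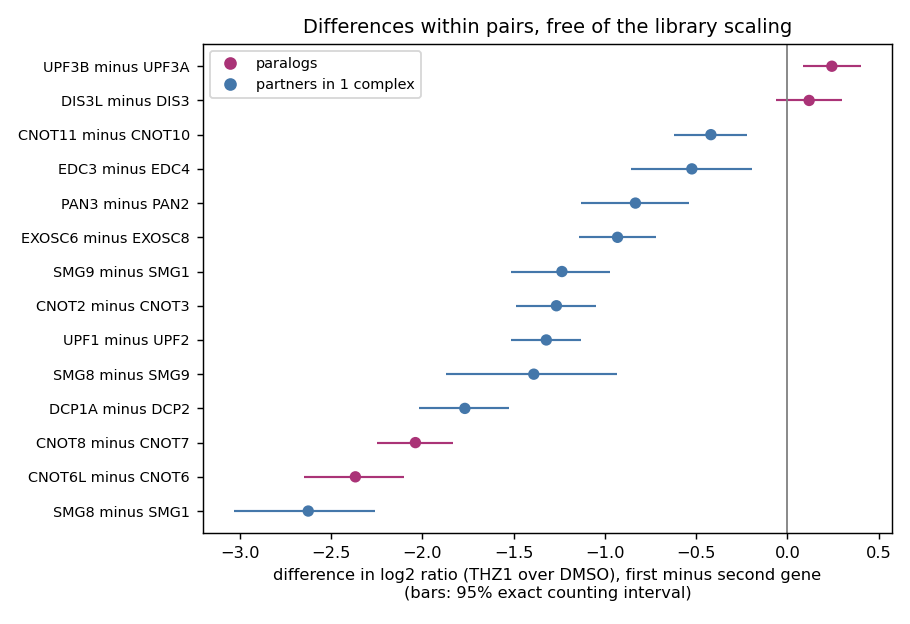
Difference in log2 ratio (THZ1 over DMSO) between the first and second gene of 14 pairs, with exact 95% counting intervals, for paralogs and for partners in 1 complex. The difference runs from −2.63 (SMG8 minus SMG1) to 0.24 (UPF3B minus UPF3A), and all but the UPF3 and DIS3 pairs lie below 0. The sign depends on which gene of a pair is named first, so the shared direction is no result.

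Per unit of exonic length, the most abundant members in THZ1 were UPF3B (122 TPM, a level corrected for length and library total), CNOT1 (73.4), UPF2 (62.1) and MTREX (54.5). In DMSO they were CNOT1 (125 TPM), UPF3B (113), MTREX (108) and UPF2 (91.1). The order at the top thus changed, with UPF3B first in THZ1 and CNOT1 first in DMSO. The lowest tested members were CNOT6L (2.11 TPM), SMG8 (2.40) and SMG9 (2.61) in THZ1, and SMG6, PAN2 and EXOSC4, from 10.9 to 11.3 TPM, in DMSO. TPM compares genes within a library here, because the short mitochondrial mRNAs take a larger part of the total in THZ1.

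Beyond the 41 genes, 59 others of the same pathways were followed in 6 lists, and 58 were tested. Of these, 13 were lower and 5 higher, that is 22.4% and 8.62%, close to the 21.3% and 9.70% of all genes. The median log2 ratio was 0.09. BTG2 had 0 counts in both libraries.

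Genes that bring deadenylases to mRNAs included the lowest value of the 6 lists. TOB2, an adaptor that binds CNOT7 and CNOT8, had 88 counts in THZ1 and 968 in DMSO and was at −2.93 (−3.27 to −2.62). The related BTG1 was at −1.94 (40 counts in THZ1 and 223 in DMSO), and TNRC6C, which recruits CCR4-NOT to microRNA targets, at −1.73. TNRC6A (−0.61) and TNRC6B (−0.22), its paralogs, did not pass the rule. PABPC4 was at 0.79. PABPC1, the main cytoplasmic poly(A)-binding protein, had 30963 counts in THZ1 and 21241 in DMSO and was higher (1.07, 1.04 to 1.09). In this list, 3 of 9 tested genes were lower and 1 higher, beside 21.3% and 9.70% of all tested genes. PABPC1 was not called with total counts (0.55) or with a count minimum of 1, and was at −0.62 with the mitochondrial standard.

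Of 12 decapping activators, 3 were lower (25%) and 2 higher (16.7%), beside 21.3% and 9.70% of all tested genes. The higher genes encode subunits of the LSM ring, which binds the shortened tail: LSM3 (5272 counts in THZ1 and 2313 in DMSO; 1.71, 1.64 to 1.78) and LSM5 (1853 counts in THZ1 and 1086 in DMSO; 1.30, 1.19 to 1.41). DDX6, the helicase that joins CCR4-NOT to decapping, had 1085 counts in THZ1 and 5047 in DMSO and was lower (−1.69, −1.79 to −1.60). PNRC2, a bridge between DCP1A and UPF1, was lower at −1.84 (514 counts in THZ1 and 2650 in DMSO), as was EIF4ENIF1, a DDX6 partner, at −1.23. PATL1 was at −0.35. On the mitochondrial standard LSM3 was at 0.02 and LSM5 at −0.39.

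Exosome cofactors had 3 of 12 genes lower (25%) and 0 higher, beside 21.3% and 9.70% of all tested genes. RBM7, the RNA-binding subunit of the nuclear targeting complex NEXT, had 101 counts in THZ1 and 628 in DMSO (−2.11, −2.43 to −1.81), while its partner ZCCHC8 was at −0.66. The poly(A) polymerase gene TENT4A (−1.36) and the zinc knuckle gene ZCCHC7 (−1.10) were lower, whereas TENT4B, the paralog of TENT4A, was at 0.03. Of the cofactors with the most reads, SKIC3 had a ratio of 0.93, HBS1L of 0.91 and ZFC3H1 of 0.88, none past the rule. None of the 5 other nucleases and scavengers passed the rule, beside the same 21.3% and 9.70% of all tested genes. XRN2, the nuclear 5′ exonuclease, was at 0.51 and PARN, a poly(A) ribonuclease, at 0.41.

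Of 10 exon junction and other nonsense-mediated decay factors, DHX34, a helicase that acts with UPF1, was lower (83 counts in THZ1 and 402 in DMSO; −1.74, −2.11 to −1.41). RBM8A, a core exon junction protein, was higher at 1.03 (0.93 to 1.13), with 31.5% of its exonic length overlapping other genes. RBM8A was not called with total counts (0.52), the upper quartile, a count minimum of 1 or the stricter interval bound, and was at −0.66 with the mitochondrial standard. Its partner MAGOH was at 0.55. The termination factors ETF1 (0.43) and GSPT1 (0.23) did not pass the rule. In this list 1 of 10 genes was lower and 1 higher, beside 21.3% and 9.70% of all tested genes.

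Of 10 tested transcripts known as substrates of nonsense-mediated decay, 3 were lower and 1 higher, with a median of −0.13. The shares (30% and 10%) are near the 21.3% and 9.70% of all tested genes. SNHG12 (−2.37), SNHG1 (−1.59) and DDIT3 (−1.40) were lower and ZFAS1 (1.21) was higher, though ZFAS1 was not called with total counts (0.69) and was at −0.48 with the mitochondrial standard. GADD45B (0.71), ATF4 (0.17) and GADD45A (0.15), whose proteins act in stress responses, and GAS5 (−0.33) did not pass the rule. SNHG12 and ZFAS1 are annotated as antisense genes, 39.6% of the exonic length of DDIT3 overlaps other genes, and its 17 counts in THZ1 and 66 in DMSO are few, so these values are uncertain.

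**Figure D4:**
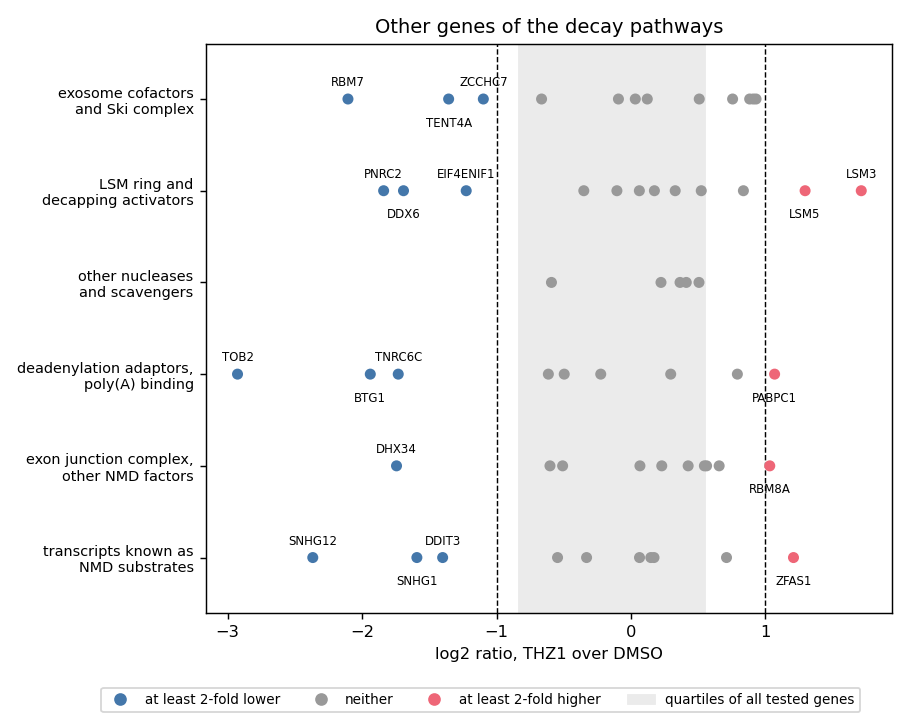
Log2 ratio of THZ1 over DMSO for the 58 tested genes of 6 other decay lists, with the called genes named. Blue points are at least 2-fold lower (13 genes), red points at least 2-fold higher (5 genes), and the grey band spans the quartiles of all tested genes (−0.83 and 0.55).

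**Figure D5:**
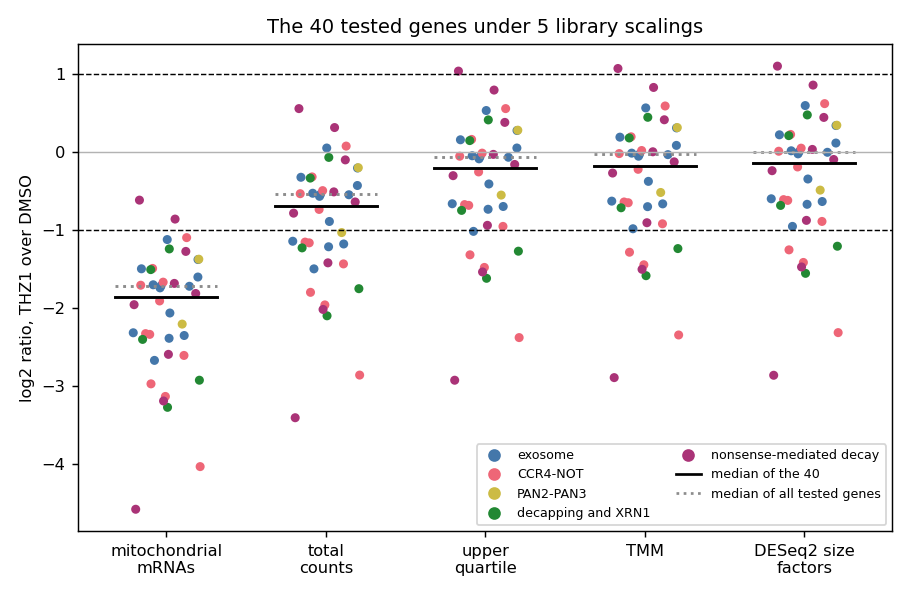
Log2 ratio of THZ1 over DMSO for the 40 tested genes under 5 library scalings, with their median (black line) and that of all tested genes (dotted line). The points move together, from a median of −1.86 with the mitochondrial standard to −0.14 with DESeq2 size factors, and keep their order within a scaling.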

How the data were processed

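The authors deposited whole-number read counts per Ensembl gene ID with no normalization, 1 file per library. Per the labels' protocols, TRIzol was used for extraction and a KAPA mRNA HyperPrep kit for the libraries. Trimming with Trimmomatic 0.38, alignment with HISAT2 2.1.0 and counting with featureCounts 1.6.0 on GRCh38 are listed in the submitters' processing notes. Not given in the sources used here: the strand setting, the treatment of multimapping reads and the annotation release. Symbols came from the gene name table (58472 of 58884 IDs), and coordinates, exons and lengths from GENCODE 29.

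A minimum of 30 counts in either library was required. Scaling used TMM from edgeR 4.0.16 (R 4.3.3), with effective library sizes of 15320940 for THZ1 and 22049153 for DMSO. Log2 ratios have 0.5 counts added. Intervals are exact Clopper-Pearson intervals of the THZ1 share of both counts, and for pairs exact conditional odds ratio intervals (scipy 1.17.1). They cover counting error only, as PCR copies are not separate molecules. TPM used the merged exonic length. The code for the calls was run on simulated counts that varied by counting error only, with the library scaling taken as known. That run held no variation between cultures and no error of scaling, so it says nothing about either. The 41 members, the lists and the pairs were chosen with earlier results of these data known. All members are named, with every called gene of the other lists and up to 3 more a list with many reads, and a few partners named after their values were seen. Other settings tried were 4 more scalings (total counts, DESeq2 1.42.0, upper quartile, mitochondrial mRNAs), a minimum of 1 or 100 counts, a test of coding genes alone, a stricter call that needs the whole interval past 2-fold, 5 added counts, and thinning to equal totals. Genes of the other lists that are not named enter the counts only.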

Additional observations from a re-analysis of the deposited data

How the results depend on the processing

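Of the 40 members tested, 17 were lower with total counts (42.5%, beside 34.2% of all genes). With the mitochondrial standard 38 were lower (95%, beside 80.3%). The number of higher members was 0 with total counts, the mitochondrial standard, a count minimum of 1 and an interval bound of at least 2-fold. Of all genes, 2.95%, 0.706%, 6.78% and 5.38% were higher at these settings, in that order. The members' median log2 ratio was −0.69 with total counts and −1.86 with the mitochondrial standard. For the other lists, the alternatives were chosen after seeing the data. Of their 58 tested genes, 20 were lower with total counts (34.5%, beside 34.2% of all genes). With the mitochondrial standard 46 were lower (79.3%, beside 80.3%). The higher genes were 1 with total counts, 0 with the mitochondrial standard and 3 with a count minimum of 1. Of all genes, 2.95%, 0.706% and 6.78% were higher at these settings. UPF3B was at −0.62 with the mitochondrial standard. A scaling moves every gene alike by construction, and the cause of the gap between scalings was not tested. With the upper quartile EXOSC6 joined the 7 lower genes, with a count minimum of 1 and the TMM factors recomputed at it (a shift of −0.10; the same 40 members were tested) EXOSC6, CNOT9 and UPF1 did, and with the stricter interval bound EDC3 left them. No paired analysis was possible because each group had 1 library, and no library could be left out. Low counts limit EXOSC4 and DDIT3, and DCP1B has none.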

Other observations

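By the number of exons of the principal transcript, the share of lower members was near that of tested protein-coding genes or rested on few genes. Of 4 members with 1 to 5 exons, 1 was lower, beside 33.9% of 2863 protein-coding genes. Of 11 members with 6 to 10 exons, 3 were lower (27.3%), beside 20.9%. Of 14 with 11 to 20 exons, 3 were lower (21.4%) and 1 higher, beside 17.5% lower and 158 higher of 3237 protein-coding genes. Of 11 with 21 or more, 0 were lower and 0 higher, beside 11.2% lower and 72 higher of 1511 protein-coding genes. As a description, Spearman's rho between exon number and log2 ratio was 0.25 over the 40 members and 0.10 over 10868 tested protein-coding genes. Between gene span and log2 ratio it was 0.12 and 0.09, and between mean CPM and log2 ratio 0.41 and 0.35. The lower members spanned 5.85 kb (SMG8) to 112 kb (CNOT2). All points come from the same 2 libraries, and the mean CPM contains the counts of the ratio.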
